A study of Mus musculus with 5 samples.

Results

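The contractile genes of smooth and striated muscle were described in RNA from mouse tissue labelled as dorsolateral prostate. The members are 34 named genes of the 51912 in each table, taken by symbol from a written list, with no threshold on their values: 17 belong to smooth muscle and 17 to striated muscle. All 17 smooth muscle genes were abundant enough to be tested, and none passed the test of a difference between the groups. Their level varied by several fold from library to library, with the 17 genes in similar order and the groups overlapping. Of the 17 striated muscle genes, 13 could be tested and 11 had fewer than 100 counts in every library. Over the 5 libraries together, the most counts, which are not corrected for length, fell on Ttn and Neb. They encode the giant filament proteins titin and nebulin. Their differences between the groups had opposite signs, neither past edgeR's adjusted threshold.

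Smooth muscle contracts when calcium, bound to calmodulin, activates myosin light chain kinase, which phosphorylates the regulatory light chain of smooth muscle myosin and lets it pull on actin filaments; myosin phosphatase reverses the step. Striated muscle is instead switched on through troponin on the thin filament of the sarcomere, whose length is kept by titin and nebulin. In the male accessory glands smooth muscle surrounds the ducts and expels the secretion. Serum response factor (SRF), with its coactivator myocardin, is known to drive many smooth muscle contractile genes by binding the CArG box, a DNA motif, in their promoters.

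The 5 libraries came from male mice aged 7 months that all carried floxed Ghr alleles (Ghrflox/flox; Ghr encodes the growth hormone receptor) and the transgene SV40 C3(1) T-antigen+/0, a viral oncogene under the C3(1) promoter. Every mouse was dosed with tamoxifen at 250 mg/kg a day for 5 days, and the tissue was collected 1 month later. The 3 deletion libraries were from mice that also carried ROSA26Cre-ERT2+/0, a tamoxifen-activated recombinase expressed from a ubiquitous locus. The 2 control libraries list no Cre, so loss of Ghr and presence of Cre cannot be told apart. The series describes the libraries of a group as biological replicates. Ghr itself had 336 and 646 counts in control mice against 232, 668 and 652 in deletion mice. After scaling it stood at 14.4 and 31.2 CPM (counts relative to the size of the library) against 8.12, 20.9 and 12.1, so the groups overlapped.

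The libraries differed widely in markers of neighbouring organs. Totals ran from 13812454 to 47656212 counts, and the 50 most abundant genes took between 22.7% and 74.7% of a library. The prostate secretory gene Pbsn had 411 counts in 1 control and 1 count in the other, against 4, 8 and 3 in deletion mice. The 9 seminal vesicle genes summed to 177232 and 23512 TPM (transcripts corrected for length, relative to the whole library) in the controls and to 157155, 198631 and 18234 in the deletion libraries. The single genes did not share this order. By TPM, 6 of the 9 were highest in control replicate 1, and 5 were lowest in deletion replicate 2, where the sum was highest. The 7 prostate genes, Pbsn among them, summed to 14.91 and 150.17 TPM in control mice against 4.84, 20.85 and 346.61 in deletion mice. Their sum was thus highest in deletion replicate 3 and did not follow Pbsn. The 7 vas deferens and epididymis genes summed to 0.900 and 1428 TPM against 2492, 2447 and 58.0, with Rnase9 and Lcn5 at 2 counts or fewer everywhere. The 7 urothelial genes summed to between 8.40 and 27.3 TPM in 4 libraries and to 242 in deletion replicate 3, where Upk3a, at 0 in the others, had 1046 counts. The part of these differences in the muscle values was not tested. Fewer muscle cells and less RNA per muscle cell cannot be told apart in such bulk samples.

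Promoters of 4 members are shown because they bear the SRF motif in smooth and striated genes and belong to the genes on which the account turns. Each runs from 250 bases before the annotated start to 50 after it, read 5′ to 3′ on the gene's strand, from RefSeq for GRCm38.p6. The positions are chr19:34255324-34255623 (minus strand) for Acta2, chr2:156775214-156775513 (plus) for Myl9, chr8:123894726-123895025 (minus) for Acta1 and chr2:76982498-76982797 (minus) for Ttn. Capitals mark the CArG box, meaning CC, then 6 bases that are each A or T, then GG, or, where no exact match was found, a match with 1 mismatch.
Acta2: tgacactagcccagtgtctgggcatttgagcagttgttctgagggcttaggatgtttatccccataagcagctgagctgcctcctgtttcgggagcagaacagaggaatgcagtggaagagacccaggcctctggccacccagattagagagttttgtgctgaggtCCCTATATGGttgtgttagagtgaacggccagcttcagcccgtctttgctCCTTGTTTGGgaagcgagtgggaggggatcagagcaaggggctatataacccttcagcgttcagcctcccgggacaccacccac
Myl9: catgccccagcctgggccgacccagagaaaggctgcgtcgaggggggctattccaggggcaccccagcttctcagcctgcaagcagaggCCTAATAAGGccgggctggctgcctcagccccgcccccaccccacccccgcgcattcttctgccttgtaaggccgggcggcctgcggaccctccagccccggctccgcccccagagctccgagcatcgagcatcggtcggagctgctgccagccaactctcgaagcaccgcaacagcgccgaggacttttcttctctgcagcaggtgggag
Acta1: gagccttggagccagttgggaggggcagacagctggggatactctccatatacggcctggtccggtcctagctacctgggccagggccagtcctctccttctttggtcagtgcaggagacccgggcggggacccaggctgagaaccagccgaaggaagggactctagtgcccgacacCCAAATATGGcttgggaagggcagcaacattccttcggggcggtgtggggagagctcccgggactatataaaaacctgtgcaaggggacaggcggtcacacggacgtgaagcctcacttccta
Ttn: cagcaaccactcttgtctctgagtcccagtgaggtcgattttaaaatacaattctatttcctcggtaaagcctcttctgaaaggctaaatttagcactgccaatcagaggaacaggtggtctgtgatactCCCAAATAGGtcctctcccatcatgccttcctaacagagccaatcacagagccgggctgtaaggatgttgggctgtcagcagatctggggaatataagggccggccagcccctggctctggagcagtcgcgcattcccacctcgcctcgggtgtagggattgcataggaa
An exact CArG box began 161 bases before the start of Myl9, the smooth muscle regulatory light chain, and 73 bases before the start of Acta1, skeletal muscle actin. Acta2, smooth muscle alpha-actin, had 2 matches with 1 mismatch, which began 84 and 34 bases before the start, and Ttn had 1, which began 120 bases before.

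Windows were found for 27 of the 34 members, 13 of them smooth muscle genes and 14 striated. The exact motif lay in the window of 1 of the 13 smooth muscle genes (Myl9) and of 2 of the 14 striated genes (Acta1 and the fast myosin heavy chain Myh4). It lay in 1.63% of all 32817 windows. With 1 mismatch allowed, 21.1% of all windows held a match, and so did those of 6 smooth muscle genes (Acta2, Cald1, Lmod1, Myl9, Synm and Tpm1) and 11 striated genes. The motif reads the same on both strands, so 1 search covers both. The palindrome CAGCTG, an E-box of the kind bound by myogenic factors, was in the windows of 4 smooth muscle and 8 striated genes and in 16.3% of all windows; it does not overlap the CArG boxes shown. A match is a feature of the letters and not evidence of binding. The 6 smooth muscle genes with a match were spread through the range of differences between groups, from Lmod1 at -0.17 to Synm at 0.91 on the log2 scale.

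No smooth muscle gene was called as different between the groups. Of 17 tested by edgeR's quasi-likelihood test, 0 passed an adjusted p of 0.05, 0 had an unadjusted p under 0.05, and 0 had all deletion libraries on one side of both controls; DESeq2 and limma-voom also called 0. Over all 18615 genes tested, edgeR called 0%, 4.92% had an unadjusted p under 0.05 and DESeq2 called 0.892%. All deletion libraries lay above both controls in 9.43% of these genes and below both in 10.2%. The log2 fold change, deletion minus control, was above 0 for 11 smooth muscle genes and below 0 for 6. Its median was 0.20, beside 0.0045 over all genes tested. Neither the count nor the sign of the median was stable: 17 were above 0 without deletion replicate 2 (median 0.60), 16 without control replicate 2 (0.55), 5 without deletion replicate 1 (-0.40), 8 with limma-voom (-0.028), and 7 with the replicate block (-0.19). With control replicate 1 left out 7 were (-0.074), and 8 once deletion replicate 3 was also dropped (-0.022). With library totals 16, and on TPM 17, were above 0, where the median of all genes was itself 0.23 and 0.87; 10 and 12 were above that median. With all 5 libraries in edgeR, the log2 fold change ran from -0.18 for Cnn1 to 0.95 (SE 0.700) for Myocd, with SEs of 0.488 to 0.732. With 2 controls these intervals are wide: that of Acta2, the gene with the smallest difference, reached from -1.53 to 1.55.

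The thin filament was represented by the actins, tropomyosins and actin-binding proteins. Acta2, at chr19:34241090-34255590, was at 320 and 670 CPM in control replicates 1 and 2 and at 759, 184.7 and 550 in deletion replicates 1, 2 and 3. It was highest in one deletion library and lowest in another, with both controls between, and the means were 495 ± 248 (SD, n = 2) and 498 ± 291 (SD, n = 3). The log2 fold change was 0.01 (SE 0.643). Actg2, the gamma-actin of visceral smooth muscle, was at 94.9 and 73.3 CPM in control mice against 162, 28.8 and 127 in deletion mice. Its control levels were in the reverse order of those of Acta2.

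Tropomyosin lies along the actin filament. Tpm1 was at 184.9 and 275 CPM in control mice against 337, 102 and 242 in deletion mice. Tpm2 was at 166 and 151 CPM against 334, 48.3 and 117, a 6.91-fold range that was the widest among the 17. Cald1, encoding caldesmon, which restrains myosin on actin, was at 114 and 241 CPM against 344, 130 and 212. In each of these genes both control values fell inside the range of the deletion values, save that Cald1 was lowest in control replicate 1.

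Calponin and transgelin are actin-binding proteins used as markers of differentiated smooth muscle. Cnn1, which encodes calponin 1, was at 138 and 205 CPM in control mice against 253, 86.4 and 115 in deletion mice. Tagln was at 258 and 348 CPM against 414, 139 and 299. Its exons overlap those of the opposite-strand gene Pcsk7 over 1241 bases, the strand setting of the counting is not given in the sources used here, and reads of the overlap cannot then be assigned with certainty. Lmod1, leiomodin, which nucleates actin filaments, was at 39.2 and 40.4 CPM against 46.6, 12.8 and 46.4, so that only deletion replicate 2 stood apart. Smtn, smoothelin, a protein of fully contractile cells, was at 26.2 and 31.0 CPM against 47.5, 7.70 and 27.7.

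The thick filament and its switch comprise 4 members. Myh11, the smooth muscle myosin heavy chain at chr16:14194535-14291372, was at 878 and 1658 CPM in control mice against 2634, 716 and 1517 in deletion mice. Its means were 1268 ± 551 (SD, n = 2) and 1623 ± 963 (SD, n = 3), a log2 fold change of 0.36 (SE 0.652). Myl9 was at 88.5 and 136 CPM against 222, 47.2 and 120. Mylk, the light chain kinase, was at 212 and 486 CPM against 913, 234 and 560, and here control replicate 1 was the lowest library. Ppp1r12b, a targeting subunit of myosin phosphatase, was at 86.2 and 151 CPM against 290, 70.7 and 192. Kinase, light chain and phosphatase subunit were thus all highest in deletion replicate 1, and none of their groups separated.

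Intermediate filament and scaffold genes completed the set. Des, encoding desmin, was at 94.3 and 142 CPM in control mice against 180, 40.0 and 119 in deletion mice. Synm, encoding synemin, a partner of desmin, was at 106 and 242 CPM against 489, 172.8 and 316. Synpo2, encoding an actin-bundling protein of dense bodies, was at 85.7 and 170 CPM against 336, 90.9 and 221. Synm and Synpo2 had among the larger positive differences, 0.91 (SE 0.563) and 0.76 (SE 0.593) on the log2 scale, and their lowest library was control replicate 1. Myocd, the coactivator named above, was the rarest member at 6.88 and 13.3 CPM against 30.7, 5.95 and 22.1. Its difference of 0.95, the largest of the 17, had a 95% interval from -0.72 to 2.63.

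The 17 genes moved together across libraries. By scaled CPM every one of them was highest in deletion replicate 1, while 13 were lowest in deletion replicate 2 and 4 in control replicate 1. Of all genes tested, 13.1% were highest in deletion replicate 1, 31.4% lowest in deletion replicate 2 and 25.6% lowest in control replicate 1. The sum of the 17 was 2899 and 5033 CPM in control mice against 7791, 2117 and 4804 in deletion mice, a 3.68-fold range with both ends in the deletion group. When the mean log2 level of the 17 was taken out of each library (-0.38, 0.26, 0.93, -1.08 and 0.27 relative to the overall mean, in the same order), the median SD of a gene over the 5 libraries fell from 0.834 to 0.328. The genes varied less relative to each other than as a block. The level taken out is the mean of the same genes, so some fall is built in. No other set of genes was treated in this way for comparison. Myl9 followed the block most closely, with an SD of 0.118 left, and Synm and Tpm2 least, with 0.522 and 0.498.

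**Figure D1:**
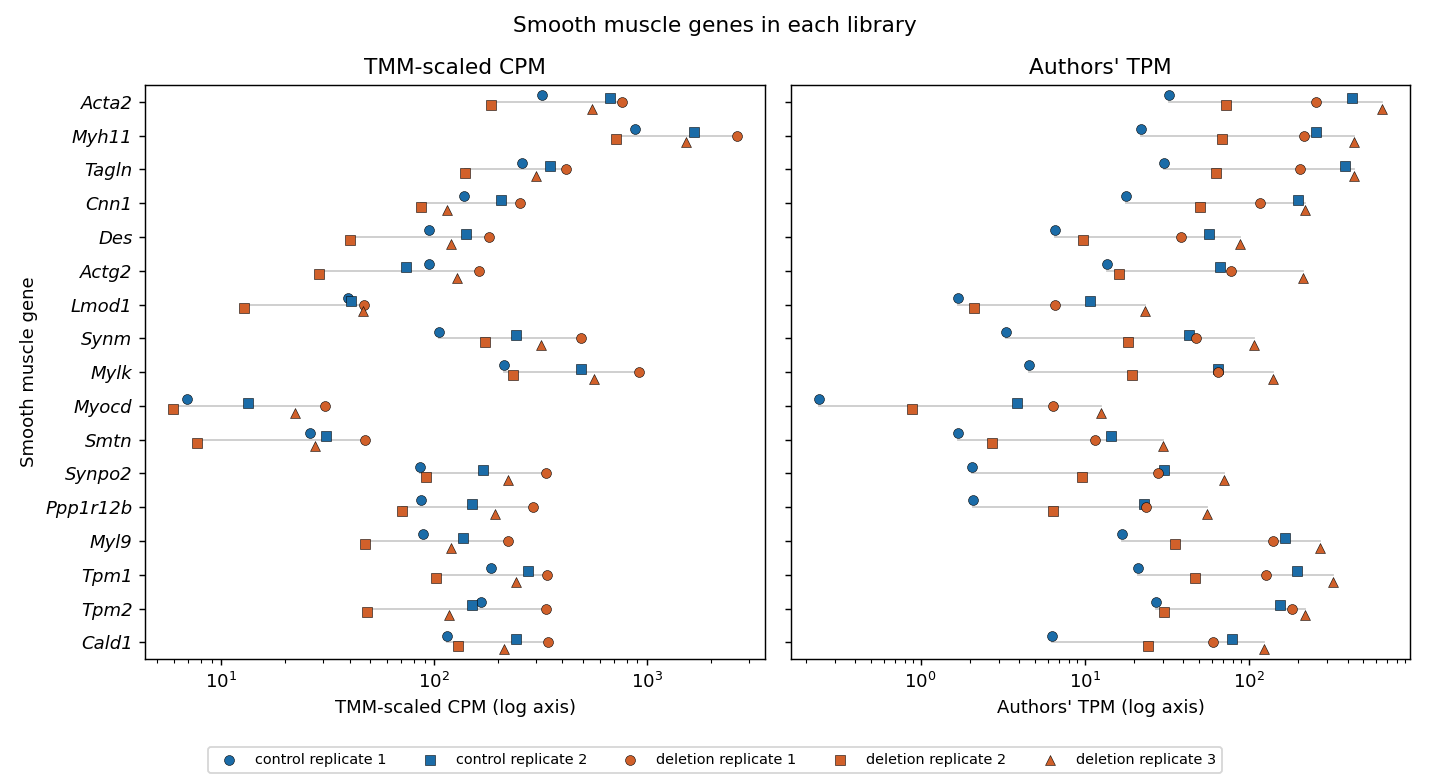
Level of each of the 17 smooth muscle genes in the 5 libraries, as TMM-scaled CPM (left) and as the authors' TPM (right), both on log axes; 1 point is 1 library, with small vertical offsets, and grey lines span the lowest to the highest. Deletion replicate 1 is rightmost for every gene by CPM, and deletion replicate 3 by TPM, with control replicate 1 leftmost, a TPM order that 86.5% and 86.6% of all genes tested share.

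The order of the libraries depended on the scale. In the authors' TPM, which share a fixed total among all genes of a library, all 17 were lowest in control replicate 1 and highest in deletion replicate 3, as were 86.6% and 86.5% of all genes tested, so this order is not particular to smooth muscle genes. The summed TPM were 210 and 2185 in control mice against 1618, 478 and 3436 in deletion mice, a 16.4-fold range. Summed as a share of all counts, the 17 made up 0.142% and 0.753% of the control libraries and 0.780%, 0.178% and 0.775% of the deletion libraries, with 95% Wilson intervals of at most ± 0.00456 percentage points that cover counting error only. The sum of the seminal vesicle genes, though not each gene, was highest in control replicate 1 and deletion replicates 1 and 2, as given above. TMM scaling, with factors of 0.491 and 1.497 against 1.00, 0.843 and 1.61, offsets such dominant genes and TPM does not. On either scale the groups of the summed level overlapped.

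Per length of transcript, Acta2 was the most abundant member, at a mean of 288 TPM over the 5 libraries and between 32.55 and 652. Tagln followed at 225 and Myh11 at 202 TPM, and Myocd was lowest at 4.81. The means of neighbours in this order lay well within the spread over libraries. The ratio of Myh11 to Acta2 within a library ranged only from 0.603 to 0.950, with the groups just apart (at most 0.674 in control and at least 0.677 in deletion libraries), and that of Des to Acta2 from 0.133 to 0.203. Actg2 was between 0.156 and 0.419 of Acta2, highest in control replicate 1 and lowest in control replicate 2.

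Ratios within a library to nonmuscle relatives do not depend on its scaling; the pairs were chosen after values were seen. Acta2 was at 0.463 and 0.957 of Actb, the actin of all cells, in control mice against 0.881, 0.190 and 0.963 in deletion mice. Myh11 was at 1.89 and 3.71 times Myh9, a nonmuscle myosin, in control mice against 7.79, 2.22 and 3.42 times in deletion mice. Deletion replicate 2 had the lowest ratio of Acta2 to Actb, as it had the lowest smooth muscle sum in CPM. The same library was lowest for Tpm2 over Tpm4 (0.523, against 1.60 to 8.92 in the others), Tpm1 over Tpm3 (0.761, against 1.91 to 2.47), Cnn1 over Cnn3 (0.390, against 1.43 to 2.73), Tagln over Tagln2 (1.26, against 3.42 to 7.25) and Myl9 over Myl12b (0.315, against 0.962 to 1.95). Each pair sets a smooth muscle form beside its broadly expressed relative. For all of these pairs the groups overlapped. By CPM, deletion replicate 2 was also the highest library for Actb, Tpm4, Tpm3, Cnn3, Tagln2 and Myl12b. Cnn3, for example, was at 340 CPM there against 108 to 221 in the others. Myh9 went the other way and was lowest there, at 190 CPM. The low ratios of this library, Acta2 over Actb among them, thus combine a low numerator with a high denominator. They do not measure the smooth muscle genes alone. Some denominators themselves separated the groups. Myh9 was at 408 and 283 CPM in control mice against 208, 190 and 221 in deletion mice (unadjusted p = 0.0479 in edgeR). Myl12b was at 57.7 and 76.9 CPM against 109, 137 and 106 (unadjusted p = 0.0306 in edgeR), and Cnn3 was also higher in every deletion library. For Actb, Tpm4, Tpm3 and Tagln2 the groups overlapped.

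Markers of 3 other stromal cell types served as further denominators for Myh11. The ratio of Myh11 to Col3a1, a fibrillar collagen of fibroblasts, was 4.59 and 8.75 in control mice against 19.2, 35.6 and 20.2 in deletion mice, so the groups did not overlap. In a design of 2 against 3 a two-sided exact permutation test cannot go below p = 0.1, and none was run on a pair chosen after its values were seen. Col3a1 itself was at 95.9 and 92.6 CPM against 54.4, 8.42 and 28.0 (log2 fold change -1.64, SE 0.670, unadjusted p = 0.0463, adjusted p in edgeR 0.995). All 11 fibroblast genes had fold changes below 0 (median -1.64), 7 of them with all deletion libraries below both controls, and 0 passed the adjusted threshold. The same held for the 11 endothelial genes, with a median of -0.93 and 7 below both controls. In each of these lists 5 genes had an unadjusted p under 0.05 in edgeR. Of all 18615 genes tested, 9225 had fold changes below 0. All deletion libraries lay below both controls in 10.2% of them, and 4.92% had an unadjusted p under 0.05 in edgeR. Ratios of Myh11 to the pericyte gene Rgs5 (15.6 to 122) and to the endothelial gene Pecam1 (16.7 to 96.5) had overlapping groups.

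Pericytes of small vessels and myoepithelial or basal cells of glands also express parts of the contractile programme. Of 7 pericyte genes tested, 3 had fold changes above 0 and 4 below, with a median of -0.056. Pdgfrb (9.92 and 14.8 CPM against 5.36, 1.10 and 5.34, unadjusted p = 0.0485) and Notch3 (9.87 and 13.6 against 7.95, 4.57 and 9.72) were lower in each deletion library than in either control, but edgeR called 0 pericyte genes. Rgs5 was at 25.3 and 47.5 CPM in control mice against 13.1, 4.88 and 58.8 in deletion mice, and Mcam at 11.5 and 24.1 against 29.6, 8.89 and 40.4. Of 6 basal and myoepithelial genes all were below 0 (median -1.74), and DESeq2, though not edgeR, called 1 of them, Krt15 (8.89 and 10.8 CPM against 3.15, 1.13 and 2.26, DESeq2 adjusted p = 0.0170). Krt5 was at 26.3 and 14.0 CPM against 8.96, 2.72 and 33.1, and Trp63 at 36.5 and 27.1 against 35.8, 11.2 and 44.9. These 3 genes and Rgs5 were lowest in deletion replicate 2, as were most smooth muscle genes, and their part in the smooth muscle values was not tested. Among the other lists, 5 of 8 luminal genes, 5 of 7 Schwann cell genes and 5 of 5 adipocyte genes tested were above 0, against 0 of 4 prostate and 2 of 9 seminal vesicle genes. edgeR called 0 of these. DESeq2 called 1 of the 4 prostate and 6 of the 9 seminal vesicle genes, beside 0.892% of all genes tested.

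**Figure D2:**
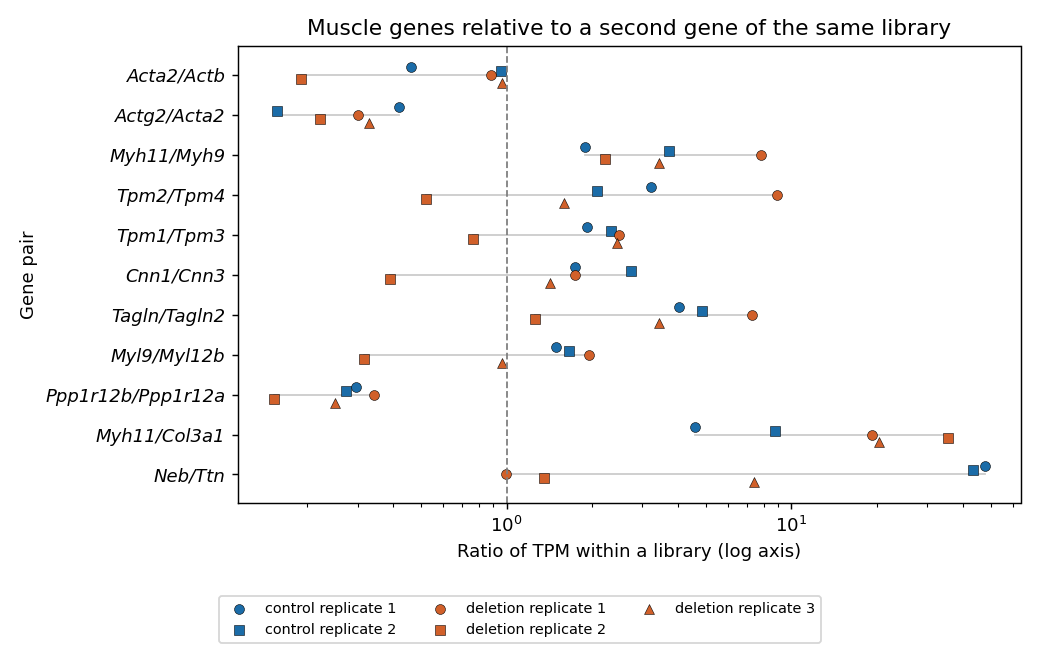
Ratios of the authors' TPM of gene pairs within each library, on a log axis; 1 point is 1 library, with small vertical offsets, and the dashed line marks a ratio of 1. Neb over Ttn and Myh11 over Col3a1 separate the 2 control from the 3 deletion libraries, with 43.5 and 47.8 against 1.00 to 7.39 and 4.59 and 8.75 against 19.2 to 35.6.

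The files also give a length for each gene, averaged over its isoforms by their abundance, a readout apart from the level. That of Mylk was nearly constant, between 7651 and 7720 bases. In the authors' annotation Acta2 and Myh11 have 1 transcript each, so their length could not vary and tells nothing of their isoforms. The length of Myocd was 4861 and 3657 bases in control mice against 2761, 4358 and 3465 in deletion mice, a 1.76-fold range at 161 to 1189 counts a library. Tagln ranged from 1113 to 1574 bases and Smtn from 1923 to 2715. For each the control and deletion ranges overlapped. Smooth muscle members hardly share sequence with other genes: of stretches of 50 bases, 0.326% of those of Acta2, 0.340% of those of Myh11 and none of those of Actg2 occur in a transcript of another gene.

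Further genes of the smooth muscle pathway gave no call in edgeR either, in lists that were written with earlier results of these data known. Of 22 other smooth muscle genes all were tested, and 20 had fold changes above 0 and 2 below, with a median of 0.43. The most abundant were Csrp1, a partner of actin bundles (317 and 346 CPM in the controls, 588, 421 and 343 in the deletion libraries), and Flna, the actin crosslinker filamin A (1050 and 1590 against 2097, 517 and 1378). Flna had the pattern of the members, lowest in deletion replicate 2, and Csrp1 did not. A list of transcription regulators (Srf, Mrtfa, Mrtfb, Elk1, Klf4, Tead1, Mef2c and Foxo4) had 1 of 8 above 0 and a median of -0.13. Not all of these are coactivators of SRF, and the member Myocd is not among them. Srf itself was nearly level at 14.7 and 11.3 CPM against 12.6, 10.7 and 12.2, while the smooth muscle genes spanned several fold. Of the most abundant here, Tead1 was at 26.4 and 57.2 CPM against 52.1, 40.4 and 75.4, and Mrtfb, another SRF coactivator, at 75.5 and 48.6 against 41.5, 46.9 and 62.3.

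Among 13 genes of RhoA signalling and myosin phosphatase, 9 were above 0 and 4 below (median 0.11). Ppp1cb, the catalytic subunit, was at 229 and 505 CPM in control mice against 360, 637 and 581 in deletion mice. Rhoa was at 220 and 185.1 CPM against 175, 254 and 226. Cnn3, the calponin of nonmuscle cells, was the only one of the list with all deletion libraries above both controls (108 and 116 CPM against 221, 340 and 140, unadjusted p = 0.0445). Of 17 tested genes of calcium entry and contractile receptors, 12 were above 0 and 5 below (median 0.25). Itpr1, the calcium release channel of the internal store, was at 204 and 494 CPM against 261, 309 and 578. Kcnma1, a calcium-activated potassium channel that relaxes smooth muscle, was at 8.12 and 31.5 CPM against 32.8, 39.4 and 61.7, with control replicate 1 far below the rest. Of 9 nonmuscle actin and myosin genes, 8 were above 0 (median 0.22). Myl6 was at 271 and 362 CPM against 369, 262 and 339, and Actb at 720 and 751 against 918, 1048 and 610. Deletion replicate 2 was thus the highest library for Actb, and for Myl6 it was the lowest by a small margin.

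Of the 13 striated muscle genes tested, 0 passed edgeR's adjusted threshold. With the unadjusted p, 3 were under 0.05, namely Ttn (0.0150), Tnnt3 (0.0336) and Atp2a1 (0.0374), and DESeq2 called Ttn alone at an adjusted p of 0.0166. All deletion libraries lay above both controls for 4 genes (Ttn, Tnnt3, Mylpf and Atp2a1) and below both for 0, against the 9.43% and 10.2% of all genes given above. The 4 genes not tested were Myh2, Tnni2, Myl1 and Pvalb, and of the 17 genes 15 reached 10 counts in some library. The median log2 fold change of the tested genes was 1.69. A rare gene passes the filter on low counts through the group in which it is higher. This median and the count of 4 against 0 therefore describe the genes that passed and support no difference. The same limit applies to the unadjusted p of Tnnt3 and Atp2a1, which had few counts in the controls. Counts of rare genes are given as counts, where 3 counts correspond to 0.0556 to 0.145 CPM.

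Ttn, at chr2:76703980-76982547, had 196 and 1613 counts in control mice against 8195, 24541 and 17567 in deletion mice. As scaled levels these were 8.38 and 78.0 CPM against 287, 768 and 326, so the groups did not overlap. On the log2 scale the difference was 3.41 (SE 1.04; 95% interval from 0.91 up to 5.91), with an adjusted p of 0.991 in edgeR and 0.0166 in DESeq2. Over 14 alternative analyses it stayed above 0, between 2.56 and 5.78, with adjusted p from 0.0166 to 1. The largest value came without control replicate 2, which left control replicate 1 alone with its low count. Per length the gene was scarce even where it was highest: its TPM were 0.0800 and 2.01 against 2.76, 6.39 and 10.5. Its mean over the libraries, 4.34 TPM, was below those of Neb (36.0), Tnnc2 (12.2) and Acta1 (7.44).

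The isoform-weighted length of Ttn also separated the groups, at 16651 and 38815 bases in control mice against 55440, 74532 and 58329 in deletion mice. Its annotated transcripts run from 271 to 106824 bases. The length was shortest in the library with the fewest Ttn counts, and the part of the count in it was not tested. The opposite-strand gene Gm13938 shares 453 of its exonic bases.

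Neb, at chr2:52136647-52378474, had 5237 and 16909 counts in control mice against 1287, 4127 and 21371 in deletion mice, or 224 and 818 CPM against 45.1, 129 and 396. The groups overlapped, because deletion replicate 3 exceeded control replicate 1. The log2 fold change was -1.45 (SE 0.924, adjusted p = 0.995 in edgeR), and over 14 alternatives it stayed below 0, between -3.24 and -0.24. Within a library, Neb was at 47.8 and 43.5 times the TPM of Ttn in control mice against 1.00, 1.36 and 7.39 times in deletion mice. TPM correct for the length of Ttn, which itself separated the groups, and the part of that length in the ratio was not tested. The values of the ratio did not overlap; the pair was chosen after its values were seen. In skeletal muscle both proteins belong to the same sarcomere.

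**Figure D3:**
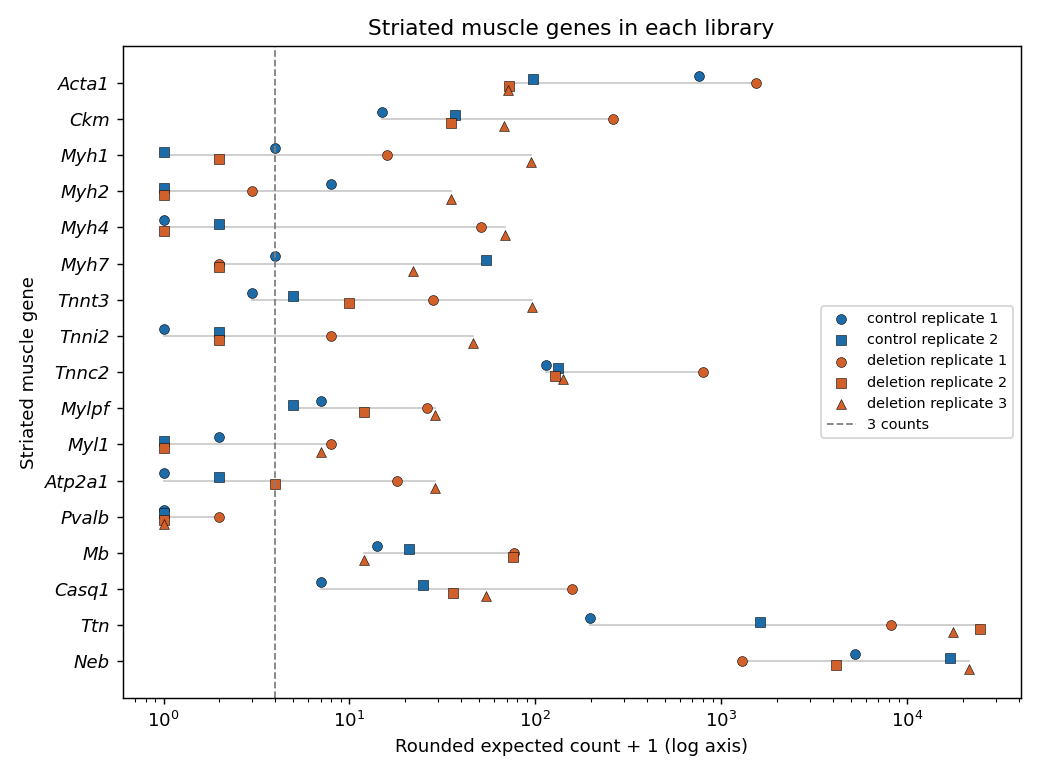
Rounded expected counts plus 1 of the 17 striated muscle genes in the 5 libraries, on a log axis; 1 point is 1 library, with small vertical offsets, and the dashed line marks 3 counts. Ttn and Neb stand at 196 to 24541 counts, while 8 genes have at least 1 library with 1 count or none.

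Of the remaining 15 striated genes together, the controls had 923 and 372 counts and the deletion libraries 2979, 368 and 760. Acta1 held most of this sum in control replicate 1 and deletion replicate 1, while Tnnc2 had more counts in the other 3 libraries. The Acta1 counts were 755 and 96 in control mice against 1541, 71 and 70 in deletion mice. Acta1 was high in control replicate 1 and deletion replicate 1 and low in the others, so its log2 fold change was 0.05 (SE 1.59). Only 2.02% of its stretches of 50 bases occur in another gene (Gm47692). Tnnc2, the calcium-binding troponin of fast fibres, had 113 and 132 counts against 795, 127 and 140. It shares 592 of its 800 exonic bases with the opposite-strand gene Ube2c, which had 54 and 14 counts against 14, 4 and 2, and the strand setting of the counting is not given.

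Genes of energy supply and calcium handling were, by CPM, also highest in deletion replicate 1. Ckm, the muscle creatine kinase, had 14 and 36 counts in control mice against 259, 34 and 67 in deletion mice. Casq1, which binds calcium in the sarcoplasmic reticulum, had 6 and 24 counts against 156, 35 and 53. Mb, myoglobin, had 13 and 20 counts against 76, 75 and 11. Atp2a1, the calcium pump of fast fibres, had 0 and 1 counts against 17, 3 and 28. After scaling, the groups overlapped in each but Atp2a1.

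The fast-fibre sarcomere genes that follow had most of their counts in deletion replicates 1 and 3, though Myh2 had more in control replicate 1 than in deletion replicate 1. Actn3, a fast-fibre gene outside the members, went the other way, as given below. Myh4 had 0 and 1 counts in control mice against 50, 0 and 68 in deletion mice. Myh1 had 3 and 0 counts against 15, 1 and 94, and Myh2 had 7 and 0 against 2, 0 and 34. These myosin heavy chains share sequence, with 25.4% of the 50-base stretches of Myh1, 22.9% of those of Myh2 and 18.9% of those of Myh4 found in other genes, so their split among copies is uncertain. Tnnt3, the tropomyosin-binding troponin of fast fibres, had 2 and 4 counts against 27, 9 and 95. Tnni2, the inhibitory troponin, had 0 and 1 counts against 7, 1 and 45. Mylpf, the fast regulatory light chain, had 6 and 4 counts against 25, 11 and 28. Myl1 had at most 7 counts in any library and Pvalb, parvalbumin, at most 1.

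Myh7, the slow-fibre and cardiac myosin, had 3 and 53 counts in control mice against 1, 1 and 21 in deletion mice. Its fitted difference turned from -3.01 to 0.31 on the log2 scale without control replicate 2. Tnnt1, the slow-fibre troponin, had 8 and 17 counts against 19, 3 and 92. Myh7 shares 15.6% of its stretches of 50 bases with other genes, nearly all with Myh6. None of the fast-fibre genes of the preceding paragraph exceeded 11 counts in deletion replicate 2, the library with the highest Ttn count.

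Genes that mark muscle precursor cells were close to absent. Of 8 myogenic genes, Myod1, Myf5, Myf6, Pax7 and Mymk had 0 counts in every library, which allows up to 3 counts, and Myog, Pax3 and Chrna1 had at most 4. Of 20 further striated genes 11 were tested, with 8 above 0, 3 below and a median of 0.20, and edgeR and DESeq2 called 0 of them (2 with an unadjusted p under 0.05 in edgeR). Smpx, a small protein of striated muscle, had 1406 and 164 counts against 199, 196 and 25 and was lower in all deletion libraries after scaling (60.1 and 7.93 CPM against 6.97, 6.13 and 0.464; unadjusted p = 0.0448, adjusted p 0.991 in edgeR and 0.300 in DESeq2), with control replicate 1 far above the other control, which was close to deletion replicate 1. Actn3, an alpha-actinin of fast fibres, had 25 and 12 counts against 6, 7 and 7. It was also lower in all deletion libraries after scaling (unadjusted p = 0.0226, adjusted p 0.991 in edgeR and 0.479 in DESeq2). Eno3, the muscle enolase, had 244 and 95 counts against 193, 356 and 253. Of 11 cardiac genes 6 were tested, with 4 above 0 and 2 below. Tnnt2 had 143 and 48 counts against 30, 88 and 1134, high in deletion replicate 3, where urothelial genes were also high. Pln, phospholamban, which smooth muscle also expresses, had 65 and 78 counts against 151, 509 and 240.

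**Figure D4:**
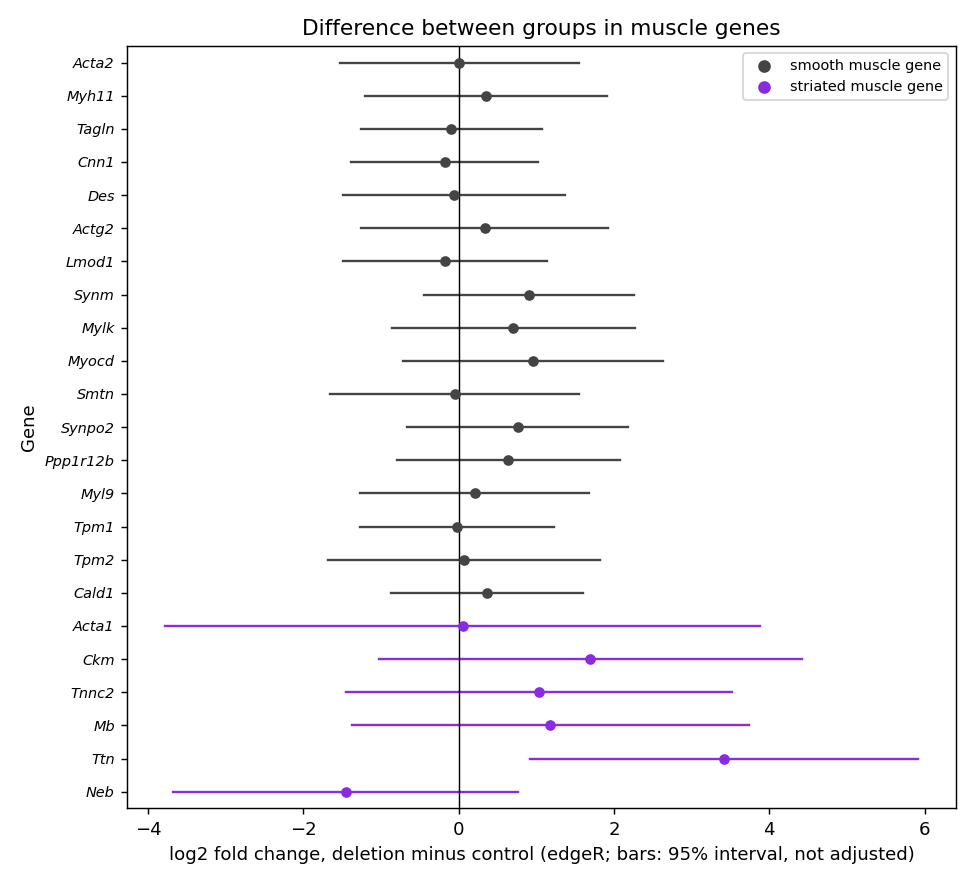
Log2 fold change, deletion minus control, with its unadjusted 95% interval from edgeR, for the 17 smooth muscle genes and the 6 striated genes with at least 10 counts in every library. All intervals of smooth muscle genes span 0, and that of Ttn runs from 0.91 to 5.91.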

How the data were processed

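Per the labels' protocols, libraries were made with a stranded kit from total RNA of frozen tissue of 5 mice. STAR 2.5.3a and RSEM 1.3.0, after bcl2fastq 2.20.422, and the build GRCm38 are named in the submitters' processing notes; annotation release and strand setting: not given in the sources used here. Per the file headers, the authors deposited RSEM's expected counts, which are not normalized, TPM, which correct for length and share a fixed total, and a gene length weighted by isoform.

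Rounded expected counts were used, and the titles gave group and replicate number. All 5 libraries entered 1 fit in edgeR 4.0.16 under R 4.3.3 (with limma 3.58.1 for the alternatives), in which filterByExpr left 18615 genes, then TMM, glmQLFit with the robust option and glmQLFTest, Benjamini-Hochberg adjusted over these genes and called at 0.05. CPM divide a count by the library size times its TMM factor. DESeq2 1.42.0, limma-voom, limma on log2(TPM + 0.1) of the deposited TPM, other scalings, no filter, a replicate block and leaving out libraries were alternatives. Fold changes are on the log2 scale. The edgeR fit was tested on simulated data.

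Genes were matched by symbol (99.5% of IDs had one), and positions came from GENCODE M21. RSEM's length of Acta2 differed from M21 (1781 against 2035 bases), so the annotation releases differ. The members and all lists were chosen with earlier results of these data known. Named were all 34 members, with values in every library for the smooth muscle genes and for striated genes with at least 10 counts in some library, and of each other list the genes past the threshold or, with none, the 2 of highest mean TPM; others, among them Srf, Cnn3, Notch3, Pdgfrb, Tnnt1, Kcnma1, Col3a1, Upk3a and the gene pairs of the ratios, were chosen after values were seen or as organ markers. Reads carry no molecular identifiers and are not independent molecules, so intervals and floors speak of counting error alone. Prostate, luminal, basal, Schwann cell and adipocyte lists were also computed.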

Additional observations from a re-analysis of the deposited data

How the results depend on the processing

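No smooth muscle gene was called under any of 14 alternatives, and among striated genes DESeq2 called 1 (Ttn); DESeq2, totals, TPM, the replicate block and the pair left out called 166, 46, 39, 8 and 85 genes of all tested. Leaving out each library in turn called 0 to 48 genes, 48 when control replicate 2 was out and 2 when deletion replicate 3 was. The pair, control replicate 1 with deletion replicate 3, was chosen after seeing the data. The median of the striated genes was 0.29 to 2.56 when a library was left out, lowest without deletion replicate 1 and highest without control replicate 2, and that of the smooth muscle genes -0.40 to 0.60. Of 410 values of single members under alternatives 359 kept direction and side of the threshold, 1 (Ttn) passed it and 50 turned sign; the cause was not tested. Log2 fold changes that turned sign follow. Library totals without TMM gave 0.063 for Tagln, 0.070 for Des, 0.15 for Lmod1, 0.15 for Smtn and 0.11 for Tpm1 (median of all genes 0.23). On log2(TPM + 0.1), where the median of all genes was 0.87, the values were 0.72 for Tagln, 0.87 for Cnn1, 0.73 for Des, 0.67 for Lmod1, 0.97 for Smtn and 0.96 for Tpm1. Fitted by limma-voom, values were -0.13 for Acta2, -0.028 for Myl9, -0.35 for Tpm2 and -1.45 for Acta1. Without a filter it was 0.003 for Tpm1. With the replicate block they were -0.31 for Acta2, -0.29 for Actg2, -0.10 for Myl9, -0.32 for Tpm2 and -0.13 for Acta1. Leaving out control 1 and deletion 3 together gave -0.51 for Acta2, -0.022 for Myl9 and -0.028 for Cald1. When each library was left out in turn, the lowest and highest were -0.43 and 0.64 for Acta2, -0.17 and 0.88 for Myh11, -0.45 and 0.23 for Tagln, -0.75 and 0.13 for Cnn1, -0.55 and 0.34 for Des, -0.094 and 0.78 for Actg2, -0.43 and 0.22 for Lmod1 and -0.68 and 0.39 for Smtn. In the same runs they were -0.42 and 0.60 for Myl9, -0.40 and 0.33 for Tpm1, -0.92 and 0.51 for Tpm2, -0.076 and 1.00 for Cald1, -3.37 and 2.05 for Acta1, -3.95 and 0.31 for Myh7 and -0.75 and 1.49 for Tnnc2. Nothing in the labels pairs same-numbered mice, and with 2 controls, whose deviations mirror each other, the correlations of deviations (0.20 for replicate 1, -0.14 for replicate 2) are not separate checks; the replicate block called 0 members. Precision is limited by the 2 controls and the spread between libraries; leaving out a control assumes that the lone one varies like the deletion libraries. The summed striated level spanned 3.36-fold by CPM, 11.5-fold by TPM and 16.3-fold by CPM without Neb; the summed smooth muscle level spanned 3.68-fold by CPM and 16.4-fold by TPM.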
